A study of Mus musculus with 8 samples.

Results

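The 33 genes described here are the machinery that proteins meet on entering the endoplasmic reticulum (ER) of Hepa1-6 cells, a mouse hepatoma line whose strain the labels give as C57BL/6. They were chosen by name and function, with no threshold on measured values but with earlier results of these data known, as the IRE1 and ATF6 arms of the unfolded protein response, ER chaperones, disulfide isomerases, translocation genes and genes of ER-associated degradation. All 33 were found once each among the 54446 genes with counts, and all 33 were among the 15613 genes that passed the filter on low counts, Derl3 with only 1 to 14 counts a library. The labels name no genetic change, and the cells fell into 4 groups of 2 libraries: TMAO at 50 µM together with TNF-α at 50 ng/ml, TNF-α alone at 50 ng/ml, TMAO alone at 50 µM, each for 24 h, and untreated controls. Titles and the treatment protocol name both agents for the combined group, whereas its treatment label names TMAO in the place of TNF-α, and the titles were followed. TMAO (trimethylamine N-oxide) is an oxidised amine made in the liver from a product of gut bacteria, and TNF-α is an inflammatory cytokine. Titles number the libraries 14 and 16 in every group without saying what the numbers stand for, and nothing states that the pair came from separate cultures. All p-values here therefore measure only the spread between libraries, which may be technical.

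Proteins bound for secretion or for membranes enter the ER through the Sec61 channel and are folded there by chaperones that use ATP, by lectins that read the attached sugar chains, and by disulfide isomerases. Chains that fail to fold are handed to lectins and channel proteins that return them to the cytosol for destruction by the proteasome, the process called ER-associated degradation. When unfolded chains build up, the sensors IRE1 (gene Ern1) and ATF6 raise the transcription of these genes, IRE1 by splicing the Xbp1 messenger and ATF6 after its own cleavage. A hepatocyte secretes much of the plasma protein and holds a large ER, and several of these genes are standard readouts of ER stress in liver.

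ATF6 and XBP1 are known to act through the ER stress element, spelled CCAAT, then 9 bases of any kind, then CCACG. In the RefSeq promoter windows of build GRCm38.p6, which run from 250 bases before to 50 bases after each gene's start, 27 of the 33 genes had a window, the others being Hyou1, Manf, Atf6, Derl1, Erlec1 and Sec61a1. The element was found on either strand in 9 of these 27 genes (33.3%), against 37 of all 27025 genes with a window (0.137%). Because the element is known from genes of this kind, its presence is a description of the members and not a test. The 10 elements are shown because they are the sequence these genes share. Each is read on the strand that spells it, 5′ to 3′, with the fixed bases in capitals:
Hspa5: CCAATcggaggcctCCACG
Hsp90b1: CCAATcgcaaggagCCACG
Hsp90b1: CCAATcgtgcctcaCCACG
Calr: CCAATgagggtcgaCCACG
Canx: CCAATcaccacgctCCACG
Pdia6: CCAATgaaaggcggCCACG
Dnajc3: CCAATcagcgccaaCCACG
Creld2: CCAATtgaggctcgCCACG
Syvn1: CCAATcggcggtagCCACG
Derl3: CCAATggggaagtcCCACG
Hsp90b1 had a pair of elements. The elements lay from 212 to 26 bases upstream of the start, 6 of them on the strand of the gene and 4 on the other strand. A looser form with any base in place of the fourth base of CCACG, which includes every match of the first, was found in 10 of the 27 genes, against 0.366% of all genes, and added Sel1l. The related element ATTGG, 1 base of any kind, then CCACG, was found in Dnajb11 and Herpud1, neither of which held the first element. It shares CCACG with that element, and ATTGG is CCAAT on the other strand. Of all genes with a window, 0.0444% held it. The core TGACGTG that XBP1 binds was found in Hspa5 alone among the members, against 2.22% of all genes. A match is a run of letters and says nothing of binding, and the absence of a match says only that the letters are not in this window.

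Upstream stretches of 250 bases are printed for Hspa5, the chaperone known as BiP, whose promoter is the textbook case of this element, and for Dnajc3, the one member that passed the test in any comparison. The element is in capitals. Both lie on the plus strand, Hspa5 at chr2:34771840-34772089 and Dnajc3 at chr14:118937682-118937931 of GRCm38.p6, and both stretches end at the base before the annotated start.
Hspa5: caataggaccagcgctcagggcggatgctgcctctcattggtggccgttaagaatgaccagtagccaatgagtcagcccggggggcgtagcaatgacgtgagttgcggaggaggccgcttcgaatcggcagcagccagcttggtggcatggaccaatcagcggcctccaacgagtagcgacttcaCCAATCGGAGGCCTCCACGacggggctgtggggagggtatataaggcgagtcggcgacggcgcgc
Dnajc3: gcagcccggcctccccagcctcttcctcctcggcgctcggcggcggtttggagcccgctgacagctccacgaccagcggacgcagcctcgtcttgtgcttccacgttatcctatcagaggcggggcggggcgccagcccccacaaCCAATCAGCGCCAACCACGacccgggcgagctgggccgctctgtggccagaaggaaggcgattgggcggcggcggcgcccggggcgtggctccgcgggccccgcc

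The libraries held 24736746 to 30488605 counts. A list of 12 NF-κB targets, the genes TNF-α is best known to induce, summed to 2933 to 3360 CPM (counts scaled to library size) in the libraries with TNF-α and 1065 to 1121 CPM in those without, so the TNF-α labels match the data. Of 12 hepatocyte markers 8 reached 1 CPM in some library, for single markers taken of the library total; Alb, Afp and Hnf4a were high, whereas Ttr, Apoa1, Apoh and Serpina1a stayed at or below 0.337 CPM. The 12 markers summed to 1434 to 1500 CPM with TNF-α and 3093 to 3336 CPM without it, and the part of this shift in the ER results was not tested. Endothelial markers stayed below 1 CPM. Of the 7 macrophage markers 3 passed 1 CPM, namely Cd14 at 15.1 to 22.6 CPM, Cd68 at 7.78 to 12.8 CPM and Csf1r at 2.99 to 7.78 CPM, whereas Ptprc and Adgre1 stayed at or below 0.303 CPM. The list summed to 27.9 to 39.4 CPM with TNF-α and 30.1 to 35.2 CPM without it. Csf1r was lower with TNF-α averaged over TMAO, with a log2 fold change of -1.08 (edgeR, adjusted p = 0.00118). Of the 6 stellate cell and fibroblast markers 2 passed 1 CPM, Col1a1 at up to 1.75 CPM and Dcn at 1298 to 1798 CPM, while Col3a1 was at 0. This list summed to 1299 to 1430 CPM with TNF-α and 1631 to 1799 CPM without it. The part of these markers in the ER results was not tested. TNF-α 16 stood apart: 32.8% of 12368 expressed genes differed over 1.5-fold from TNF-α 14, against 1.80% to 3.45% within the other groups. Its summed level of 28 ribosomal protein genes was 31584 CPM, against 21488 CPM in control 14 and 18078 to 18679 CPM in the other libraries.

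Measured per length, as TPM (transcript abundance corrected for length and library size), the members spanned a wide range of levels. The highest were Calr with a mean of 869 TPM over 8 libraries, Hsp90b1 with 791 TPM and Pdia3 with 626 TPM. They were followed by Canx at 599, P4hb at 586 and Hspa5 at 482 TPM. These 6 folding genes held 64.5% of the TPM of all 33. In all, 11 members had a mean over 100 TPM, 21 lay between 10 and 100 TPM, and Derl3 had 0.562 TPM. Next to Derl3 at the low end stood Dnajb9 at 12.5 TPM and Sel1l at 12.9 TPM. Of the 32 pairs of neighbours in this order, 7 had ranges over the 8 libraries that did not overlap, such as Hsp90b1 above Pdia3, Hspa5 above Pdia6 and Dnajb9 above Derl3. The other 25 pairs, Calr and Hsp90b1 among them, overlapped. Together the members held 6035 ± 163 TPM with both agents, 6011 ± 6.87 TPM with TNF-α, 6211 ± 24.7 TPM with TMAO and 6267 ± 73.6 TPM in controls (SD, n = 2 each). Their share of counts gave another picture. It was 0.814 ± 0.00833% with both agents, 0.860 ± 0.0481% with TNF-α, 0.856 ± 0.00332% with TMAO and 0.882 ± 0.0127% in controls. By counts the TNF-α pair differed most, with 0.826% in TNF-α 14 and 0.894% in TNF-α 16.

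**Figure D1:**
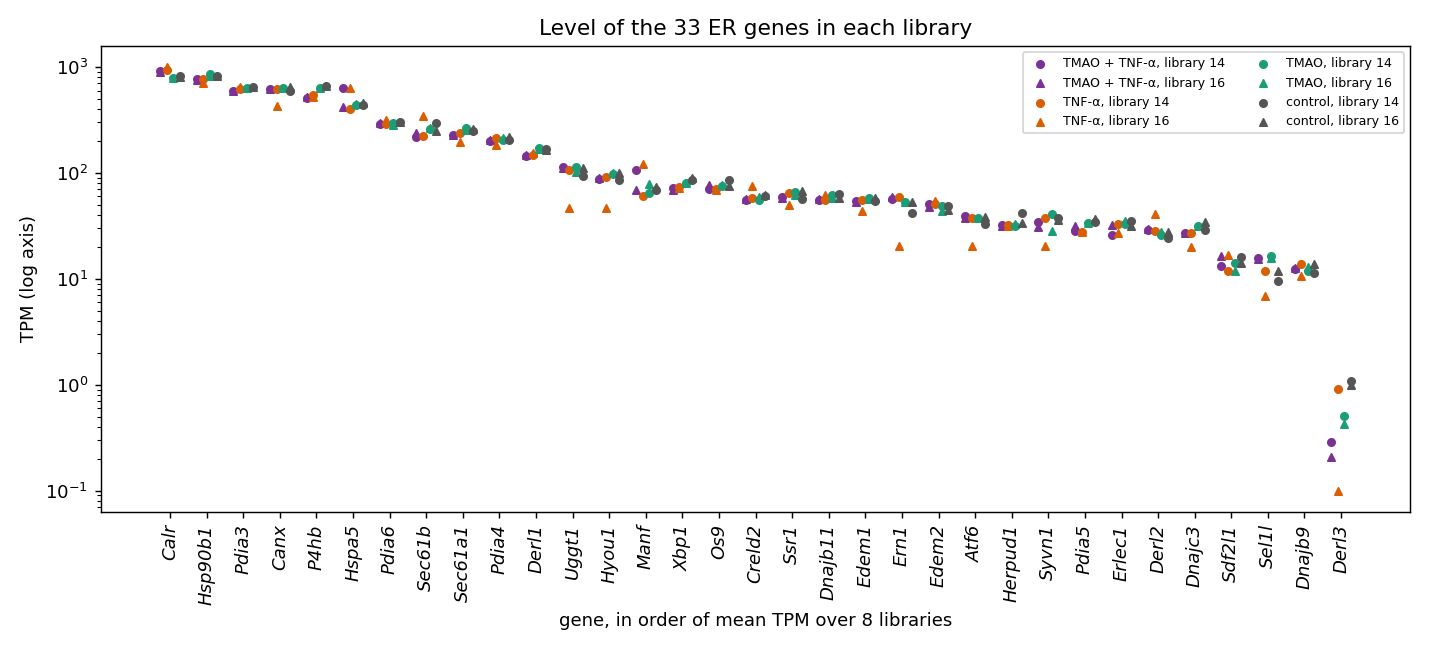
Level of the 33 ER genes in TPM (log axis) in each of the 8 libraries, with genes in order of their mean; colour marks the group, circles library 14 and triangles library 16. Levels run from Calr at a mean of 869 TPM to Derl3 at 0.562 TPM, and where 1 library departs from the others it is often TNF-α 16.

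Against these differences between genes, differences between libraries, within and between groups, were small. Over the 8 libraries the median member differed 1.403-fold in CPM between its highest and lowest library; 11 members differed over 1.5-fold and 2, Ern1 and Derl3, over 2-fold. The median SD of log2 CPM over the libraries was 0.176 for members and 0.214 for 12368 genes expressed at 1 CPM or more. In edgeR's quasi-likelihood test over all 8 libraries, with Benjamini-Hochberg adjustment over all tested genes, 1 member passed in 1 of 7 comparisons. That member was Dnajc3, which was lower with TNF-α when the effect was averaged over cells with and without TMAO. In bulk RNA, fewer cells of a type and less RNA per cell cannot be told apart.

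**Figure D2:**
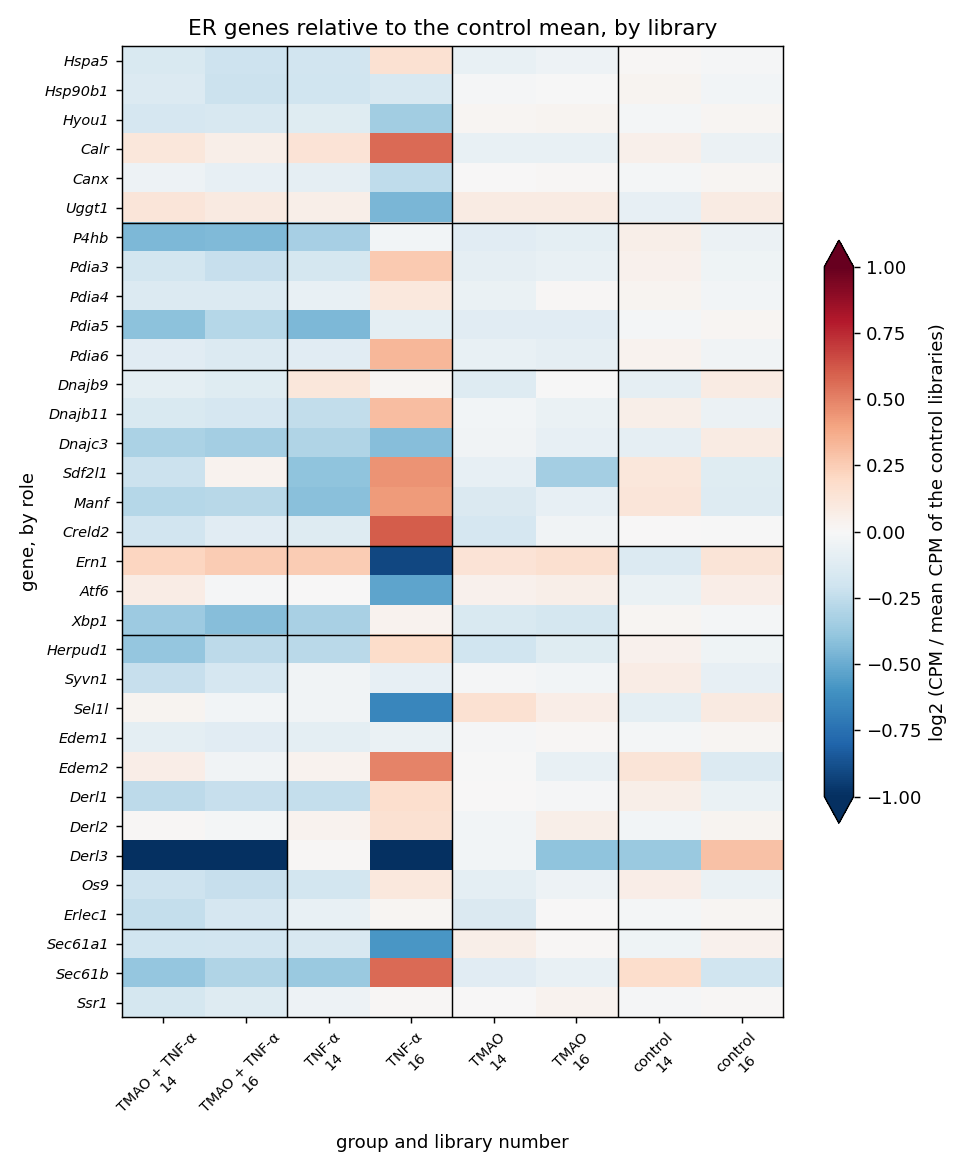
CPM of the 33 ER genes in each library as log2 of the ratio to the mean of the control libraries, with colours ending at -1 and 1, genes in blocks by role and libraries in columns by group. Most members are below the control mean in both libraries with both agents, and TNF-α 16 differs from TNF-α 14 in many rows, with Ern1 at 83.2 CPM in TNF-α 16 and 187 CPM in TNF-α 14.

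Among the co-chaperones, Dnajc3 encodes a luminal DnaJ protein that helps BiP bind unfolded chains and is also known as an inhibitor of the kinase PERK. It had 65.7 and 64.5 CPM with both agents, 66.5 and 60.8 CPM with TNF-α, 79.7 and 77.5 CPM with TMAO, and 77.1 and 86.6 CPM in controls. Every library with TNF-α lay below every library without it. With TNF-α averaged over both TMAO states its log2 fold change was -0.32 (SE 0.0737, 95% interval -0.49 to -0.14), with an adjusted p of 0.0412 from edgeR's quasi-likelihood test. In that comparison 9.2% of all tested genes passed in either direction and 3.86% were lower, so 1 lower call among 33 members is near the background of lower calls. Leaving out any single library of the control, TMAO or combined groups ended the call: the adjusted p was 0.108 without control 14, 0.225 without control 16, 0.225 without TMAO 14, 0.189 without TMAO 16, 0.211 without combined 14 and 0.225 without combined 16. It was kept without TNF-α 14 and without TNF-α 16, a pattern shared by the calls outside the 33 that are described below. The log2 fold change of Dnajc3 lay between -0.35 and -0.27 in all 19 alternatives, with adjusted p up to 0.34. In the single comparisons the log2 fold change of Dnajc3 was -0.36 for TNF-α against control (adjusted p = 0.139), -0.33 for both agents against control (adjusted p = 0.185) and -0.27 for both agents against TMAO (adjusted p = 0.296). These comparisons share libraries and are not independent of each other.

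The other co-chaperones and small luminal factors did not pass the test in any comparison. Dnajb9, a DnaJ protein that binds unfolded chains and restrains IRE1, had 14.2 and 14.01 CPM with both agents, 16.5 and 15.5 CPM with TNF-α, 13.9 and 15.2 CPM with TMAO, and 14.4 and 16.1 CPM in controls. Both libraries with both agents lay below both controls, the TMAO and TNF-α pairs overlapped the controls, and its log2 fold change was -0.11 for both agents against control and 0.01 for TNF-α averaged over TMAO. Dnajb11, another DnaJ partner of BiP, lay at 56.01 to 82.5 CPM over the 8 libraries. Sdf2l1, a small partner of luminal DnaJ proteins, lay at 6.12 to 11.04 CPM. Manf and Creld2 encode luminal proteins that are secreted under ER stress. Manf lay at 45.2 to 80.7 CPM and Creld2 at 36.01 to 62.4 CPM, and Dnajb11, Sdf2l1, Manf and Creld2 all had their highest value in TNF-α 16.

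Hspa5 encodes BiP, the ATP-driven chaperone whose level is the common readout of ER stress. It had 876 and 844 CPM with both agents, 852 and 1083 CPM with TNF-α, 926 and 938 CPM with TMAO, and 979 and 968 CPM in controls. TNF-α 16 was the highest and TNF-α 14 among the lowest, so the TNF-α pair spanned the controls. The libraries with both agents lay below the controls and below TMAO, with log2 fold changes of -0.18 (SE 0.145, 95% interval -0.52 to 0.16) against control and -0.12 against TMAO, neither of which passed (adjusted p = 0.771 and 0.961). For TMAO against control the log2 fold change of Hspa5 was -0.06 (SE 0.145, 95% interval -0.40 to 0.28), and for TNF-α against control it was -0.01 (SE 0.145, 95% interval -0.35 to 0.33). Both intervals lie within 1.5-fold in either direction.

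Hsp90b1 encodes the HSP90 of the ER. It had 624 and 589.7 CPM with both agents, 596 and 613 CPM with TNF-α, 678 and 685 CPM with TMAO, and 697 and 674 CPM in controls. All 4 libraries with TNF-α lay below all 4 without it, and the log2 fold change averaged over TMAO was -0.18 (SE 0.0778, 95% interval -0.36 to 0.01) with an adjusted p of 0.272. Hyou1, a large chaperone that also exchanges the nucleotide of BiP, showed the same order, with 195 to 252 CPM over the libraries and a log2 fold change of -0.21 (adjusted p = 0.188).

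Calr encodes calreticulin, a soluble lectin chaperone that also binds calcium. It had 924 and 891 CPM with both agents, 944 and 1270.3 CPM with TNF-α, 812 and 815 CPM with TMAO, and 889 and 824 CPM in controls. Of the 33 members only Calr was higher in all 4 libraries with TNF-α than in all 4 without it, against 9.81% of all tested genes. The fitted log2 fold change was 0.26 (SE 0.114, 95% interval -0.01 to 0.54) and did not pass (adjusted p = 0.258), and the value in TNF-α 16 stands far above the other libraries with TNF-α. Canx, the membrane-bound lectin partner of calreticulin, lay at 1031 to 1249 CPM and was lower in the 4 libraries with TNF-α without overlap. Its log2 fold change averaged over TMAO was -0.12 (adjusted p = 0.546). Uggt1, which puts a glucose back on misfolded glycoproteins so that these lectins hold them, lay at 233 to 346 CPM, lowest in TNF-α 16.

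**Figure D3:**
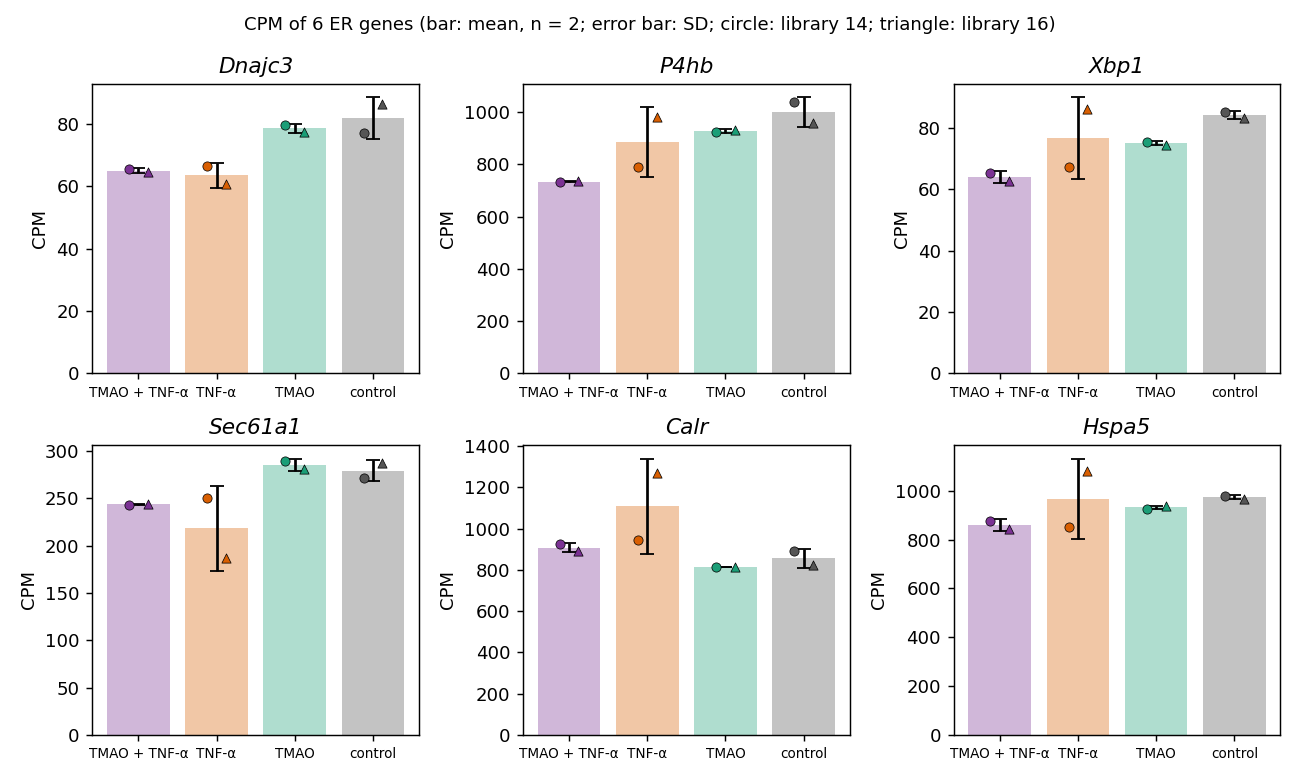
CPM of 6 ER genes by group; bars are means of 2 libraries, error bars are SD, circles library 14 and triangles library 16. Dnajc3 has all libraries with TNF-α at or below 66.5 CPM and all others at or above 77.1 CPM, whereas TNF-α 16 lies at or near the controls for P4hb and Xbp1 and far above them for Calr.

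Among the disulfide isomerases, P4hb encodes the first described member of the family, which forms and reshuffles disulfide bonds. It had 733 and 736 CPM with both agents, 792 and 980.1 CPM with TNF-α, 923 and 933 CPM with TMAO, and 1039 and 958 CPM in controls. The libraries with both agents were lower than all others, while TNF-α 16 lay within the controls' range. The log2 fold change was -0.44 (SE 0.141, 95% interval -0.78 to -0.11) for both agents against control (adjusted p = 0.186) and -0.34 against TMAO (adjusted p = 0.349), the largest of the isomerases in either comparison. Pdia3, which works with calreticulin and calnexin on glycoproteins, had 771 and 746 CPM with both agents, 774 and 1047 CPM with TNF-α, 821 and 829 CPM with TMAO, and 901 and 849 CPM in controls. TNF-α 16 was its highest library, and both libraries with both agents were its lowest. The log2 fold change of Pdia3 for both agents against control was -0.21 (adjusted p = 0.754). Pdia4, Pdia5 and Pdia6 carry several thioredoxin-like domains each and lay at 204 to 242 CPM, 22.6 to 31.3 CPM and 295 to 407 CPM. All 5 isomerases had negative log2 fold changes for both agents against control, with a median of -0.21 and a range of -0.44 to -0.12, and none passed.

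The stress sensors and their transcription factor did not pass the test in any comparison. Ern1 encodes IRE1, the kinase and nuclease that splices the Xbp1 messenger. It had 182 and 187 CPM with both agents, 187 and 83.2 CPM with TNF-α, 172 and 175 CPM with TMAO, and 142 and 171 CPM in controls. The TNF-α pair differed more than any group mean did, and the log2 fold change for both agents against control was 0.24 (SE 0.33, 95% interval -0.54 to 1.02). Atf6, the sensor that is cleaved to a transcription factor, had 134 and 126 CPM with both agents, 128 and 88.2 CPM with TNF-α, 131 and 132 CPM with TMAO, and 121 and 133 CPM in controls. TNF-α 16 was the lowest library, and the other 7 lay between control 14 and combined 14. Xbp1, whose spliced form drives chaperone and degradation genes, had 65.4 and 62.8 CPM with both agents, 67.4 and 86.1 CPM with TNF-α, 75.6 and 74.6 CPM with TMAO, and 85.2 and 83.3 CPM in controls. Both libraries with both agents were the lowest of the 8, and the TMAO pair lay below the control pair. The log2 fold change of Xbp1 was -0.39 (SE 0.13, 95% interval -0.70 to -0.09) for both agents against control (adjusted p = 0.202) and -0.17 (SE 0.129, 95% interval -0.47 to 0.14) for TMAO against control (adjusted p = 1). Counts per gene do not separate the spliced from the unspliced Xbp1 messenger, nor do they show the cleavage of ATF6.

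Among the genes of ER-associated degradation, Herpud1 encodes a membrane protein that assembles the ubiquitin ligase complex and is itself strongly induced by ER stress. It had 27.3 and 29.9 CPM with both agents, 29.5 and 40.5 CPM with TNF-α, 31.1 and 32.8 CPM with TMAO, and 36.7 and 34.7 CPM in controls. The libraries with both agents and TNF-α 14 were the lowest, the TMAO pair lay below the controls, and TNF-α 16 was the highest library. The log2 fold change of Herpud1 was -0.32 (SE 0.159, 95% interval -0.70 to 0.06) for both agents against control (adjusted p = 0.487) and -0.16 for TMAO against control (adjusted p = 1). Sel1l, the adaptor that holds the ligase Syvn1 in the membrane, had 42.6 and 41.1 CPM with both agents, 40.9 and 26.6 CPM with TNF-α, 46.5 and 43.7 CPM with TMAO, and 39.1 and 44.5 CPM in controls. Its lowest value was in TNF-α 16, and the log2 fold change for both agents against control was 0.00. Syvn1 lay at 54.4 to 67.4 CPM, lowest in the libraries with both agents.

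Derl1 encodes a membrane protein of the channel through which chains leave the ER. It had 212 and 216 CPM with both agents, 216 and 286 CPM with TNF-α, 254 and 252 CPM with TMAO, and 265 and 243 CPM in controls. The libraries with both agents and TNF-α 14 lay below the controls and TNF-α 16 above them, with a log2 fold change of -0.25 (SE 0.147, 95% interval -0.60 to 0.10) for both agents against control (adjusted p = 0.609). Its relative Derl2 lay at 48.6 to 54.9 CPM. Derl3 was near the detection limit, with 5 and 5 counts with both agents, 12 and 1 with TNF-α, 11 and 9 with TMAO and 9 and 14 in controls, so its fold changes rest on a handful of reads. Edem1 and Edem2, which trim mannose from misfolded glycoproteins, lay at 145 to 159 CPM and 46.3 to 71.7 CPM. The lectins Os9 and Erlec1, which read the trimmed sugars, lay at 87.1 to 109.8 CPM and 30.3 to 36.3 CPM. None of the 10 degradation genes passed in any comparison.

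For translocation, Sec61a1 encodes the pore of the channel. It had 243 and 244 CPM with both agents, 250.05 and 187 CPM with TNF-α, 289.7 and 281 CPM with TMAO, and 271 and 287 CPM in controls. All 4 libraries with TNF-α lay below all 4 without it, TNF-α 16 by the most. The log2 fold change averaged over TMAO was -0.29 (SE 0.105, 95% interval -0.54 to -0.04) with an adjusted p of 0.169. It was -0.19 without TNF-α 16 and -0.40 without TNF-α 14, each of which leaves 1 library in the TNF-α group. Ssr1, a subunit of the translocon-associated protein complex, had 259 and 267 CPM with both agents, 282 and 295 CPM with TNF-α, 293 and 299 CPM with TMAO, and 290.4 and 294 CPM in controls. The libraries with both agents were its lowest pair, and its log2 fold change was -0.15 for both agents against control (adjusted p = 0.672). Sec61b, the small subunit of the channel, lay at 65.3 to 126 CPM, highest in TNF-α 16 and lowest in both libraries with both agents and TNF-α 14.

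For both agents against control, 27 of the 33 members had a negative log2 fold change, with a median of -0.16, against a median of -0.00 and 50.6% negative over all tested genes. The lean was not particular to the members. Of the other ER genes listed below, 17 of 19 chaperones were negative (median -0.16) and 16 of 18 N-glycan genes (median -0.17). So were 22 of 25 translocation genes (median -0.15) and 28 of 28 ribosomal protein genes (median -0.17). Shares were smaller for isomerases and oxidases (9 of 14, median -0.12), degradation genes (18 of 27, median -0.09) and ATF6-like transducers (6 of 9, median -0.11). In 25 members both libraries with both agents lay below both controls, and in 3 (Calr, Ern1 and Uggt1) above. Over all tested genes the groups separated in this way for 29.3% downward and 27.9% upward. No member passed edgeR's test (percent called over all genes 3.49%), 4 had an unadjusted p under 0.05, and DESeq2 and limma-voom called 0 as well. The 4 were Dnajc3, P4hb, Xbp1 and Pdia5. Of the 112 tested genes in the 6 other ER lists described below, 15 had an unadjusted p under 0.05 in this comparison. The share of all tested genes at that unadjusted threshold is not given, here or for the comparisons below. The count depended on which libraries set the shared spread. In a fit of only these 2 groups 8 members passed, all lower (P4hb, Xbp1, Dnajc3, Pdia5, Herpud1, Derl1, Sec61b and Manf), where 15.9% of all genes passed and 7.47% were lower. With TNF-α 16 left out 15 passed, 14 of them lower and Ern1 higher, where 18.4% of all genes passed and 9.4% were lower. With TNF-α 14 left out 14 passed, where 18.2% of all genes did.

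For both agents against TMAO, 28 of 33 members had a negative log2 fold change, with a median of -0.12, against -0.02 and 53.1% negative over all tested genes. Both libraries with both agents lay below both TMAO libraries for 24 members and above for 3, against 33.7% and 28.9% of all tested genes. Again 0 members passed edgeR's test (percent called over all genes 3.64%), with 2 at an unadjusted p under 0.05 and 0 by DESeq2 and limma-voom. A fit of these 2 groups alone called 20 members, 18 lower and Calr and Ern1 higher, where 31.9% of all genes passed and 16.1% were lower. Without TNF-α 16 the count was 8, all lower, where 16% of all genes passed and 7.97% were lower. Without TNF-α 14 it was 7, where again 16% of all genes passed. The comparisons with control and with TMAO share the libraries with both agents.

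For TNF-α against control, 21 of 33 members had a negative log2 fold change, with a median of -0.03, against 0.02 and 48.0% negative over all tested genes. In edgeR's test 0 members passed (percent called over all genes 4.05%), with 1 at an unadjusted p under 0.05, Dnajc3, and 0 by DESeq2 and limma-voom. Both TNF-α libraries lay below both controls for 7 members and above for 2, against 17.5% and 17.6% of all tested genes. With TNF-α 16 left out 6 members passed, all lower (P4hb, Pdia5, Xbp1, Manf, Dnajc3 and Derl1), where 12.9% of all genes passed and 5.95% were lower. With TNF-α 14 left out, so that TNF-α 16 alone stood for the group, 19 passed, where 48.9% of all genes did.

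Averaged over TMAO, TNF-α gave a negative log2 fold change for 26 members, with a median of -0.09, against 0.00 and 49.4% negative over all tested genes. Beside Dnajc3, the members with an unadjusted p under 0.05 were Sec61a1, Hyou1, P4hb and Pdia5. For 6 members (Dnajc3, Sec61a1, Hyou1, Hsp90b1, Canx and Edem1) all libraries with TNF-α lay below all without, against 10.2% of all tested genes. Without TNF-α 16 the count of members that passed was 17, of which 15 were lower and Calr and Ern1 higher, where 25.0% of all genes passed and 12.8% were lower. Without TNF-α 14 it was also 17, where 45.6% of all genes passed.

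**Figure D4:**
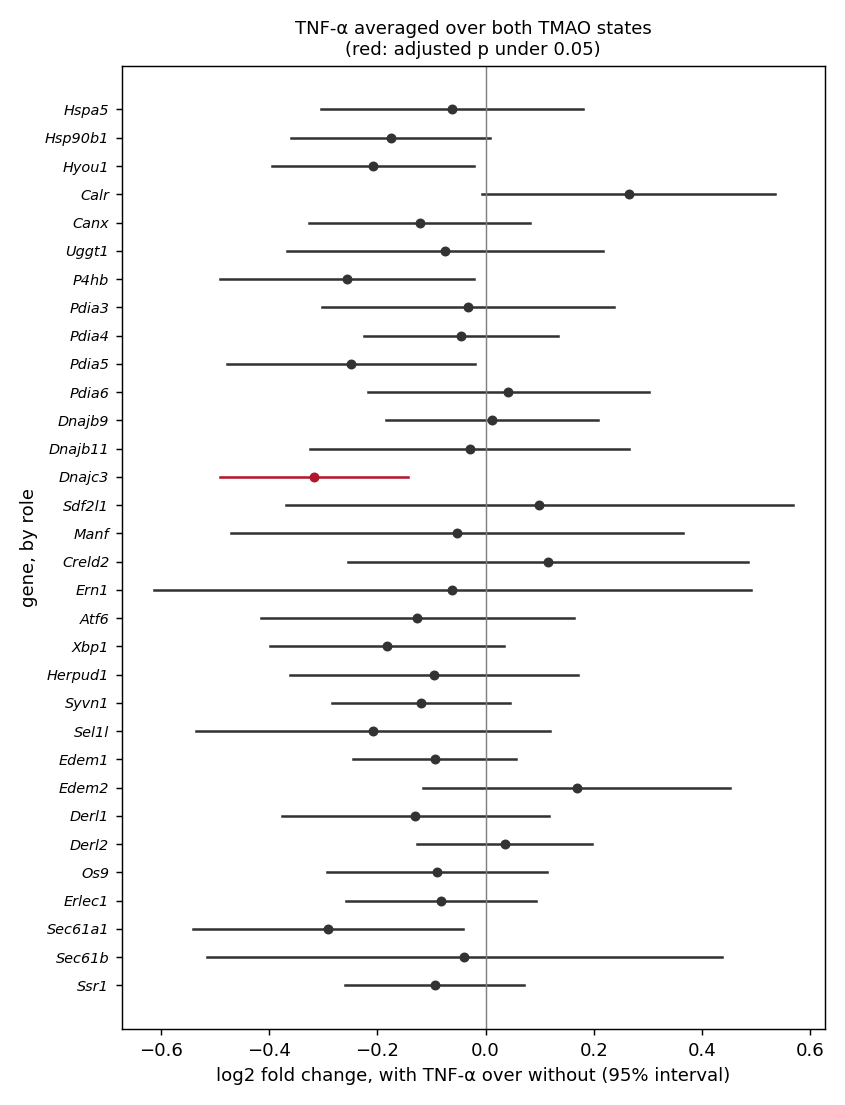
Log2 fold change of 32 ER genes with TNF-α over without, averaged over both TMAO states, with 95% intervals from edgeR; Derl3 is left out for its low counts. Only Dnajc3, in red, passed the adjusted threshold of 0.05, with a log2 fold change of -0.32, and most of the other intervals reach 0.

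For TMAO against control, 0 members passed edgeR's test, as did 0.0% of all tested genes, with 0 members at an unadjusted p under 0.05 and 0 by DESeq2 and limma-voom. The median log2 fold change was -0.06, with 24 of 33 negative, against 0.00 and 49.4% negative over all tested genes. The members with the smallest p were Xbp1 and Herpud1, described above. Both TMAO libraries lay below both controls for 9 members and above for 3, against 15.9% and 17.2% of all tested genes. For 32 members the 95% interval lay within 2-fold in either direction and for 27 within 1.5-fold. The half-width of the interval had a median of 0.35 on the log2 scale.

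Averaged over TNF-α, TMAO gave a median of -0.12 with 26 of 33 members negative, against -0.01 and 51.1% negative over all tested genes. With TNF-α 16 left out this median became -0.03, with control 14 also left out -0.02, and -0.00 with limma on log2(TPM + 1). In edgeR's test 0 members passed (0.0% of all tested genes), with 0 at an unadjusted p under 0.05 and 0 by DESeq2 and limma-voom. Xbp1 had -0.21 (SE 0.0915, 95% interval -0.43 to 0.00) and Herpud1 -0.23 (SE 0.112, 95% interval -0.49 to 0.04), both with an adjusted p of 0.66. All libraries with TMAO lay above all without it for 1 member, Uggt1, and below for 0, against 1.31% and 1.38% of all tested genes. Without TNF-α 14, when TNF-α 16 alone stood for its group, the count was 24 members, where 44.8% of all genes passed.

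Whether the response to TNF-α differed with TMAO was tested by the interaction, in which 0 members passed (0.0% of all tested genes), 0 had an unadjusted p under 0.05 and DESeq2 and limma-voom called 0. The smallest p were those of Ssr1, at -0.15 (SE 0.14, 95% interval -0.48 to 0.18), and Derl1, at -0.22 (SE 0.208, 95% interval -0.72 to 0.27), both with an adjusted p of 0.953. The intervals were wide, with a median half-width of 0.49 on the log2 scale, and for 14 of 33 members they lay within 1.5-fold. Without TNF-α 14 the count was 16 members, where 35.5% of all genes passed, and without TNF-α 16 it was 0, with 0.0% of all genes.

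TNF-α and control were the groups whose pairs differed most, and in one alternative TNF-α 16 and control 14 were both set aside, which leaves the TNF-α and control groups with 1 library each that is assumed to vary like the others. This choice was made with earlier results known. In that fit 22 members passed for TNF-α averaged over TMAO, 19 of them lower and Calr, Ern1 and Edem2 higher, where 34.0% of all genes passed and 17.4% were lower. The log2 fold changes were small: -0.30 for P4hb (SE 0.0193), -0.32 for Dnajc3 (SE 0.0363), -0.26 for Xbp1 (SE 0.0367), -0.14 for Hspa5 (SE 0.0197) and -0.16 for Hsp90b1 (SE 0.0214), against 0.19 for Calr (SE 0.0197). For both agents against control 20 members passed, 17 of them lower, where 22.8% of all genes passed and 11.6% were lower. For both agents against TMAO 20 passed, 18 of them lower, where 29.7% of all genes passed and 15.1% were lower. For TNF-α against control 16 passed, 14 of them lower, where 20.1% of all genes passed and 10.1% were lower. For TMAO averaged over TNF-α 1 member passed, P4hb, lower, where 0.388% of all genes passed. For TMAO against control 0 members passed (0.295% of all genes), and for the interaction 0 passed (0.00616% of all genes).

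In CPM the TNF-α pair differed over 1.5-fold for 7 members, the control pair for 1, Derl3, and the TMAO pair and the pair with both agents for 0. Of the 33 members 16 had their highest and 9 their lowest value in TNF-α 16, against 39.8% and 35.8% of the 12368 expressed genes. The difference followed gene length: over the 33 members the Spearman correlation between exon length and the log2 difference of TNF-α 16 minus TNF-α 14 was -0.62, and over 12363 genes with a length it was -0.55. The points share both libraries and their depth, so this describes the pair and is given without a p. Sec61b, with 1271 bases of exon, had 126 CPM in TNF-α 16 and 65.8 CPM in TNF-α 14. Ern1, with 8173 bases, had 83.2 CPM in TNF-α 16 and 187 CPM in TNF-α 14. Not every long gene followed: Ssr1, with 10431 bases, had 295 CPM in TNF-α 16 and 282 CPM in TNF-α 14. For control 14 minus control 16 the correlation was -0.47 over the members and -0.43 over the same genes. The part of length in the comparisons above was not tested.

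**Figure D5:**
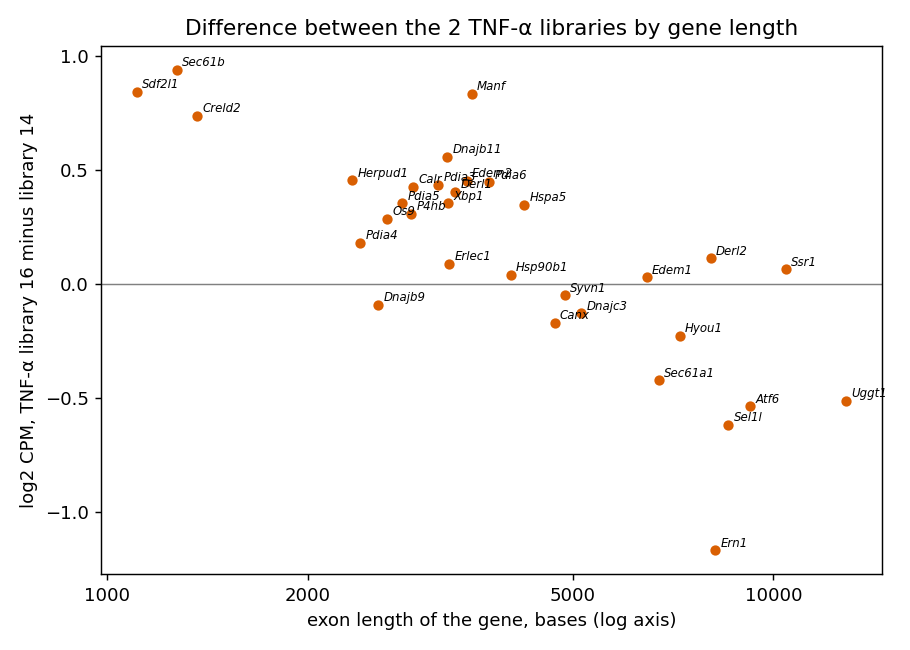
Log2 CPM of TNF-α 16 minus TNF-α 14 against exon length in bases (log axis) for 32 ER genes, each point a gene; Derl3 is left out for its low counts. Short genes such as Sec61b lie above 0 and long genes such as Ern1 and Sel1l below it, but the long genes Ssr1 and Derl2 lie above 0. Over all 33 members the Spearman correlation is -0.62.

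Log2 fold changes were also set side by side for members with and without the ER stress element. For both agents against control the median log2 fold change was -0.18 for the 9 with the element and -0.14 for the 18 with a window but no element. For TNF-α averaged over TMAO the medians were -0.12 with and -0.07 without the element. The groups' ranges overlapped in both comparisons, and no test was made of the split.

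Outside the 33, 6 lists of other ER genes (disulfide isomerases and oxidases, chaperones, N-glycan enzymes, degradation, translocation with signal peptidase, and ATF6-like transducers) held 119 genes, of which 112 were tested. In 6 of the 7 comparisons 0 of them passed edgeR's test, with 0 to 15 at an unadjusted p under 0.05. In those 6 limma-voom called 0, and DESeq2 called 1 for both agents against control and 1 for both agents against TMAO. For TNF-α averaged over TMAO 2 were higher and 2 lower, 4 of 112, a smaller share than the 9.2% of all tested genes. In that comparison DESeq2 called 6 and limma-voom 4. Ero1l, an oxidase that recharges the disulfide isomerases, had 76.2 and 78.7 CPM with both agents, 90.9 and 76.00 CPM with TNF-α, 55.8 and 55.8 CPM with TMAO, and 66.2 and 71.4 CPM in controls. It rose with TNF-α, with a log2 fold change of 0.38 (SE 0.0815) and an adjusted p of 0.0323. Its relative Ero1lb rose with a log2 fold change of 0.69 (SE 0.155, adjusted p = 0.0383), at 8.12 and 8.94 CPM with both agents, 8.93 and 5.91 CPM with TNF-α, 5.01 and 5.30 CPM with TMAO, and 4.29 and 5.21 CPM in controls. Qsox1, a sulfhydryl oxidase of the secretory path, had 53.9 and 58.2 CPM with both agents, 55.2 and 63.5 CPM with TNF-α, 76.97 and 69.6 CPM with TMAO, and 75.1 and 75.1 CPM in controls. It was lower with TNF-α, with a log2 fold change of -0.36 (SE 0.0801, adjusted p = 0.0344). Rnf103, a ubiquitin ligase of ER-associated degradation, had 28.7 and 26.7 CPM with both agents, 27.9 and 27.7 CPM with TNF-α, 34.2 and 33.01 CPM with TMAO, and 34.2 and 34.2 CPM in controls. It was lower with TNF-α, with a log2 fold change of -0.29 (SE 0.0689, adjusted p = 0.0459).

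The PERK arm, the third branch of the unfolded protein response, had all 12 of its listed genes tested. Its one call was Sesn2, a stress-induced gene that restrains the growth kinase mTORC1, which was lower with TNF-α averaged over TMAO, with a log2 fold change of -0.31 (SE 0.0699, adjusted p = 0.0383). In that comparison 9.2% of all tested genes passed and 3.86% were lower, so 1 call among 12 genes is near the background. Each of these 5 calls, like that of Dnajc3, was lost when any 1 control, TMAO or combined library was left out and kept without either TNF-α library. The pattern was the same for all of these genes and is not particular to any of them. The share of all genes that passed in the fits that lost the calls is not given. Over all alternatives the adjusted p reached 0.409 for Ero1l, 0.533 for Ero1lb, 0.194 for Qsox1, 0.281 for Rnf103 and 0.215 for Sesn2.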

How the data were processed

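The group of each library was read from its title. Per the labels' protocols, RNA was extracted with Trizol, mRNA was taken with oligo beads, and libraries were sequenced as paired reads. The build named in the submitters' processing notes is mm9. For aligner, annotation and strand setting: not given in the sources used here. Deposited by the authors were whole-number counts per versioned Ensembl gene and, in another table, TPM values per gene symbol. Identifiers were matched to GENCODE M21, 53229 of 54446 with their version, and exon lengths were taken from it. That annotation is of build GRCm38, which differs from the mm9 of the processing notes, and the mismatch was not resolved. Ddit3, a symbol of 2 identifiers, was taken from the one with more counts over the 8 libraries. The 33 members and all gene lists were chosen with earlier results of these data known.

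Counts were tested with edgeR 4.0.16 (R 4.3.3): filterByExpr kept 15613 genes, TMM scaled the libraries, and a model of 4 group means was fitted to all 8 libraries (glmQLFit, robust), which leaves 4 residual degrees of freedom. The quasi-likelihood test was used with Benjamini-Hochberg adjustment over all kept genes at 0.05. Intervals are 95% and unadjusted. CPM values of single genes are counts scaled by library total and TMM factor. Summed CPM of gene lists, and the CPM ranges of single cell type markers, were scaled by library total alone. TPM serves comparisons between genes. In simulated counts for 15613 genes, the test recovered 3.12% of 1.5-fold, 30.4% of 2-fold and 70.1% of 4-fold changes for TNF-α against control, with 7 of 77 calls on unchanged genes. For TNF-α averaged over TMAO it recovered 26.6%, 60.9% and 86.6%, with 10 of 127 calls on unchanged genes. The simulated counts had the same spread per gene in all libraries, with no library set apart as TNF-α 16 was. The changed genes were drawn at random from all kept genes, not at the levels of the members. The members named with the value in each library were those called in any contrast, the leading gene of each role, the 2 with the smallest p in each contrast, and the 3 with the highest and lowest mean TPM. The alternatives were DESeq2 1.42.0, limma-voom (limma 3.58.1), other scalings and filters, fits of only the groups compared, a replicate block, limma on log2 TPM with a pseudocount of 1 or 0.1, each library left out, and TNF-α 16 with control 14 left out together. Counts were lowest for Derl3, at 1 to 14 a library, Sdf2l1, at 185 to 267, and Dnajb9, at 374 to 498, and counting error was not separated from other spread. TPM values of Ddit3 and March6 were not used here.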

Additional observations from a re-analysis of the deposited data

How the results depend on the processing

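The log2 fold changes of the 2 members with the smallest p in each contrast kept their sign under every alternative. The median over members stayed negative under every alternative for both agents against control (-0.17 to -0.07), both against TMAO, TMAO against control and TNF-α averaged over TMAO (-0.14 to -0.06), ran from -0.13 to -0.00 for TMAO averaged over TNF-α, and changed sign for TNF-α against control (-0.16 to 0.01) and the interaction (-0.16 to 0.06). With libraries left out singly, the number of members that passed ranged from 0 to 19 for TNF-α against control, 0 to 15 for both agents against control, 0 to 8 for both against TMAO, 0 to 17 for TNF-α averaged over TMAO, 0 to 24 for TMAO averaged over TNF-α and 0 to 16 for the interaction, and was 0 throughout for TMAO against control. A lone library is assumed to vary like the other groups. Without TNF-α 16 and control 14 together, 16 members passed for TNF-α against control, 20 for both against control, 20 for both against TMAO, 22 for TNF-α averaged over TMAO and 1 for TMAO averaged over TNF-α. In the fit of only the groups compared, 20 members passed for both against TMAO, where 31.9% of all genes passed. For both against control 8 passed, where 15.9% of all genes did. The fit without TNF-α 16 and control 14 takes its spread from the same TMAO and combined libraries. Its calls for both against TMAO are therefore not independent of that fit. For TNF-α averaged over TMAO the count was 0 with scaling by total counts (Dnajc3 adjusted p = 0.0609) or no filter on low counts (adjusted p = 0.108), and 2 (P4hb lower, Calr higher) with limma on log2(TPM + 0.1). With limma on log2(TPM + 1) it was P4hb alone, lower, with Dnajc3 at an adjusted p of 0.26. DESeq2 and limma-voom kept Dnajc3. The share of all genes that passed under these scalings, filters and tools is not given here. The averaged contrasts and the interaction have no fit of only the groups compared.

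The differences between libraries 14 and 16 were not positively correlated across groups. Their correlation was -0.42 between control and TNF-α and between -0.05 and 0 for the other pairs of groups. This cannot decide whether the numbers mark pairs, because pairs with little in common would give the same. With the number as a replicate block, 0 members passed for TNF-α averaged over TMAO (Dnajc3 adjusted p = 0.101), and no other count changed.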

Other observations

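For some members the deposited TPM did not follow the counts. The ratio of TPM to CPM of the same gene differed between the libraries other than TNF-α 16 by a median of 1.10-fold, and by at most 1.2-fold for 26 members. It differed 2.04-fold for Manf, 1.61-fold for Hspa5, 1.51-fold for Sel1l, 1.45-fold for Syvn1 and 3.04-fold for Derl3. Hspa5 had 630.5 and 419 TPM with both agents, at 876 and 844 CPM. Manf had 106 and 68.7 TPM with both agents, at 49.4 and 49.6 CPM. Sel1l had 15.6 ± 0.350 TPM with both agents and 16.01 ± 0.371 TPM with TMAO, against 10.8 ± 1.62 TPM in controls (SD, n = 2 each), whereas its log2 fold changes from counts were 0.00 for both agents and 0.11 for TMAO. The cause was not tested.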
